A study of Arabidopsis thaliana with 24 samples.

Results

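The tau and phi glutathione transferases of Arabidopsis thaliana were followed as a gene family, taken by locus ID from 5 tables of differential expression. They comprise 40 genes, the 28 tau genes GSTU1 to GSTU28 and the 12 phi genes GSTF2 to GSTF14 without GSTF12, among 23865 genes listed in at least 1 table. Of the 40, all were listed for nitrate in wild type, in hbi-q and in wild type with H2O2, 38 were listed for nlp7-1, which lacked GSTF2 and GSTF11, and 21 were in the table for H2O2, which held called genes alone. By the locus numbers 29 of them fall into 9 tandem clusters, counted as members at most 30 locus numbers apart on 1 chromosome, and 11 stand alone.

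Seedlings of the Col-0 background had grown for 7 days on 7 mM KNO3 and then stood for 2 days without nitrogen before they were treated. Wild-type seedlings were given mock treatment, 10 mM KNO3, 0.5 mM H2O2, or KNO3 and H2O2 together, while hbi-q and nlp7-1, both mutants, had mock treatment or KNO3. KNO3 and H2O2 were applied for 3 h. The names of the authors' comparisons write the mock control as KCL, and H2O2 without KNO3 as H2O2 or KCL_H2O2. Each of the 8 groups had 3 biological replicates, 24 mRNA libraries in all. NLP7 is a transcription factor of the nitrate response and the HBI genes encode bHLH factors. Neither the HBI genes lost in hbi-q nor the kind of allele in either mutant is named in the labels. Base mean is the authors' mean of normalized counts over the libraries of a fit, and NLP7 itself had one of 446 in the nlp7-1 table and 1057 in that of wild type and hbi-q, per the authors' deposited tables. HBI1 transcripts were still counted in hbi-q and rose there with nitrate by 4.17 ± 0.12 on the log2 scale, against 5.30 ± 0.16 in wild type, in the authors' deposited tables, so HBI1 checks nothing about the hbi-q label. As a check of the treatment, NIR1, NIA1 and NRT2.1 rose in all 4 nitrate comparisons.

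Glutathione transferases join the tripeptide glutathione to electrophilic compounds, and some reduce organic peroxides. The tau and phi classes are the large plant classes, and many of their genes are known to respond to herbicide safeners, oxidised lipids, salicylate and pathogens. Conjugates are moved into the vacuole by ABCC transporters. TGA factors, which are bZIP proteins that bind the letters TGACG, control many stress-induced members. The study's title names HBI factors, reactive oxygen species and nitrate signalling, and the comparisons here ask how these genes answered nitrate in each genotype and H2O2 with and without nitrate.

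Promoter sequences are shown for the members on which the results turn: GSTU7 (AT2G29420) for its run of TGACG, GSTU25 (AT1G17180) and GSTU12 for a high response to H2O2, and GSTF14 (AT1G49860) for a high response to nitrate. Each is the 300 bases before the RefSeq gene start in TAIR10.1, written 5′ to 3′ on the strand of the gene, and capitals mark TGACG on either strand. GSTU7 lies at chr2:12618900-12619199 (minus strand), GSTU25 at chr1:5871724-5872023 (plus strand), GSTU12 at chr1:26335631-26335930 (minus strand) and GSTF14 at chr1:18458226-18458525 (plus strand).
GSTU7: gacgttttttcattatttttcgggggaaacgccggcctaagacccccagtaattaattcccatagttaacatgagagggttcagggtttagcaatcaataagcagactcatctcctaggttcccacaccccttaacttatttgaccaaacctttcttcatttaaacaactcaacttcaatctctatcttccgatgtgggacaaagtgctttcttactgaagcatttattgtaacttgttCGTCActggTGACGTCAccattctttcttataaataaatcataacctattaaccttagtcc
GSTU25: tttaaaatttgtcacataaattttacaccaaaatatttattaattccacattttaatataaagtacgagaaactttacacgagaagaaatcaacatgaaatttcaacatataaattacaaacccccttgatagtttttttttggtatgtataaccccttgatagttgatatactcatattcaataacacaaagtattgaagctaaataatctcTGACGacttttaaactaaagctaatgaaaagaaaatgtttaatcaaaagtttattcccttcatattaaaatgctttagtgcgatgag
GSTU12: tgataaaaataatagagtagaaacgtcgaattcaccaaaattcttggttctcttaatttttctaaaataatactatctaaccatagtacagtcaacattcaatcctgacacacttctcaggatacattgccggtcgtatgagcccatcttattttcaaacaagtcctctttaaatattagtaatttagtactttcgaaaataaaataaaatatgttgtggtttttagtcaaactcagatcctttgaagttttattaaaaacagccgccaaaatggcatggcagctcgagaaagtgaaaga
GSTF14: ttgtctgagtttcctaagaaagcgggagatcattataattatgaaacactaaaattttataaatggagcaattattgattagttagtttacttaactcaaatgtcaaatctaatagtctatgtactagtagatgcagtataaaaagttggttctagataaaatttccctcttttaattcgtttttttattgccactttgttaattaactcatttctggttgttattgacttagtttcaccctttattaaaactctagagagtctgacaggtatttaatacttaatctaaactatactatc
GSTU7 held 3 matches, the first bases of which lie 61, 52 and 49 bases before the gene start, and the last 2 of these overlap. GSTU25 held 1, at 87 bases before the start, while GSTU12 and GSTF14 held none in this window. Of the 40 members 16 held TGACG, 13 of 28 tau and 3 of 12 phi, against 21.3% of 27443 protein-coding nuclear genes. For the G-box CACGTG, which reads the same on both strands, 3 of the 40 members held it, beside 7.09% of all genes. Such a match is a description of the letters and not a bound site.

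Transcript levels of the family spanned a wide range. To compare genes, base mean was divided by the exon length of the RefSeq gene. GSTF9 stood highest at 13945 per kb and GSTF10, its tandem neighbour, at 12590, in the authors' deposited table that wild type and hbi-q have in common. Next came GSTF14 at 6758, GSTU19 at 6382, the auxin- and camalexin-binding GSTF2 at 5696 and GSTF6, an enzyme of camalexin synthesis, at 4735, per the authors' deposited table. These 6 made up 70.7% of the summed level of the family, and the 12 phi genes 69.5%. These base means and shares pool mock and KNO3 libraries. GSTF14 owed its rank to the KNO3 libraries, with derived means over both genotypes of 339 normalized counts in mock and 15719 after KNO3. GSTU3 was lowest at 8.49 per kb, followed by GSTF5, GSTU15 and GSTU12 at 22.4 to 25.1, per the authors' deposited table. Fold changes of those 4 in that table therefore rest on few reads.

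**Figure D1:**
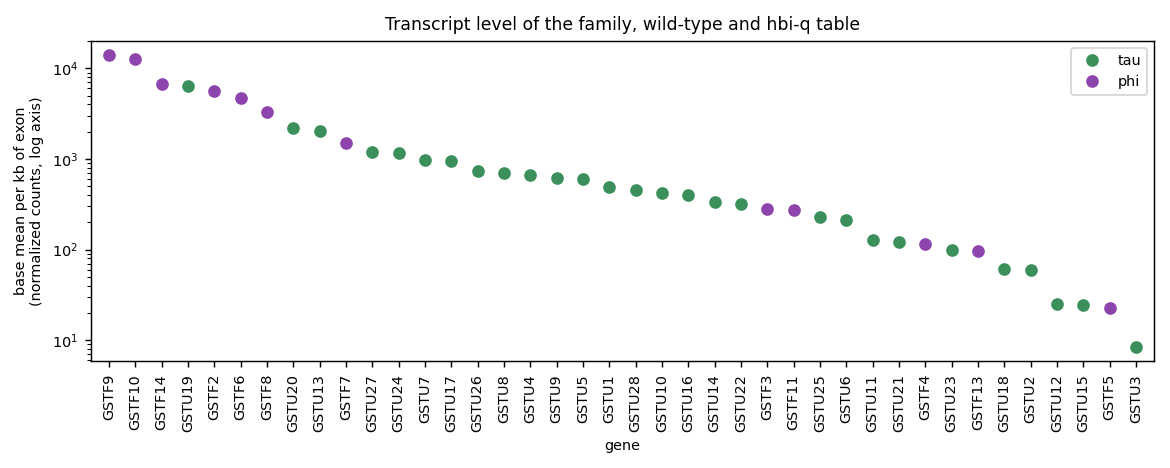
Base mean per kb of exon for each of the 40 genes on a log axis, from the joint wild-type and hbi-q fit, with tau genes in green and phi genes in purple. GSTF9 (13945) and GSTF10 (12590) lie at the top and GSTU3 (8.49) at the bottom.

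Closely related pairs can share reads. The coding sequences of GSTF2 and GSTF3 were 94.5% identical, with a longest identical stretch of 74 bases, and those of GSTF6 and GSTF7 were 94.3% identical, with one of 116 bases. For the 28 tau genes the closest pair was GSTU1 and GSTU2 at 85.5%, with a longest stretch of 35 bases. How the authors' mapping and counting treated reads shared by such copies is uncertain, so values of GSTF2, GSTF3, GSTF6 and GSTF7 are read with that limit. RefSeq also places a gene on the opposite strand across part of GSTU2, GSTU6, GSTU7, GSTU10, GSTF2, GSTF4, GSTF10 and GSTF11. Reads of these partners cannot be told apart without strand, and no source used here says whether strand was kept. On the same strand GSTU17 overlaps GSTU18, GSTU10 overlaps AT1G74600 and GSTF8 overlaps AT2G47720, and strand would not separate those.

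Nitrate in wild type raised 1 of the 40 genes and lowered 6. GSTF14, a phi gene outside the tandem clusters, rose 42.8-fold in the authors' deposited table, and all 6 genes that fell were tau genes, namely GSTU3, GSTU4, GSTU15, GSTU16, GSTU24 and GSTU25. The member count for higher genes, 1 of 40, stands beside 9.44% of all 22954 genes, and that for lower genes, 6 of 40, beside 5.51%. Calls follow the study's rule, 2-fold or more with an adjusted p-value below 0.05. The median log2 fold change in the authors' deposited table was -0.12 over the 40, -0.28 over tau and 0.36 over phi, beside -0.01 over all genes.

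GSTF14 had a log2 fold change of 5.42 ± 0.10 (standard error) in the authors' deposited table, with an adjusted p of 0, a value below the smallest number that the file held. GSTU15 fell the furthest of the 40 in the authors' deposited table, 11.1-fold (-3.48 ± 0.55, adjusted p = 1.38e-09), from a base mean of 21.4. GSTU16 beside it had a base mean of 445 and fell 3.18-fold in the authors' deposited table (-1.67 ± 0.11, adjusted p = 1.75e-51). These 2 form a cluster of 2, and both fell.

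In the cluster of 7 tau genes GSTU1 to GSTU7, neighbours went different ways. In the authors' deposited table GSTU4 fell 4.50-fold (-2.17 ± 0.13, adjusted p = 2.50e-62), and GSTU3 fell by 2.21 ± 0.69 on the log2 scale (adjusted p = 0.00319) from a base mean of 9.10. GSTU5, which is next to GSTU4 and is known as an auxin-induced gene, stood at 0.92 ± 0.11 in the authors' deposited table, short of 2-fold. The other 4 of the cluster lay between -0.76 (GSTU7) and 0.13 (GSTU1) in that authors' deposited table. In the cluster of 3, GSTU24 and GSTU25, whose enzymes are known to detoxify the explosive TNT, fell by 1.74 ± 0.09 (adjusted p = 1.44e-88) and 1.20 ± 0.13 (2.62e-19) in the authors' deposited table. GSTU26 beside them stood at -0.30 ± 0.11 in the authors' deposited table and was not called.

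Of the phi genes other than GSTF14, none was called. Among the most abundant, GSTF9 stood at 0.72 ± 0.08 and GSTF2 at 0.73 ± 0.11, while GSTF10 (0.12 ± 0.08), GSTF6 (-0.10 ± 0.08) and GSTF8 (0.20 ± 0.09) lay nearer 0, in the authors' deposited table. GSTF7 stood at 0.69 ± 0.09 and the less abundant GSTF3 at 0.70 ± 0.13 in the authors' deposited table. The uncalled members ranged from -0.88 (GSTU17, linked to light signalling and drought) to 0.92 (GSTU5) in the authors' deposited table.

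**Figure D2:**
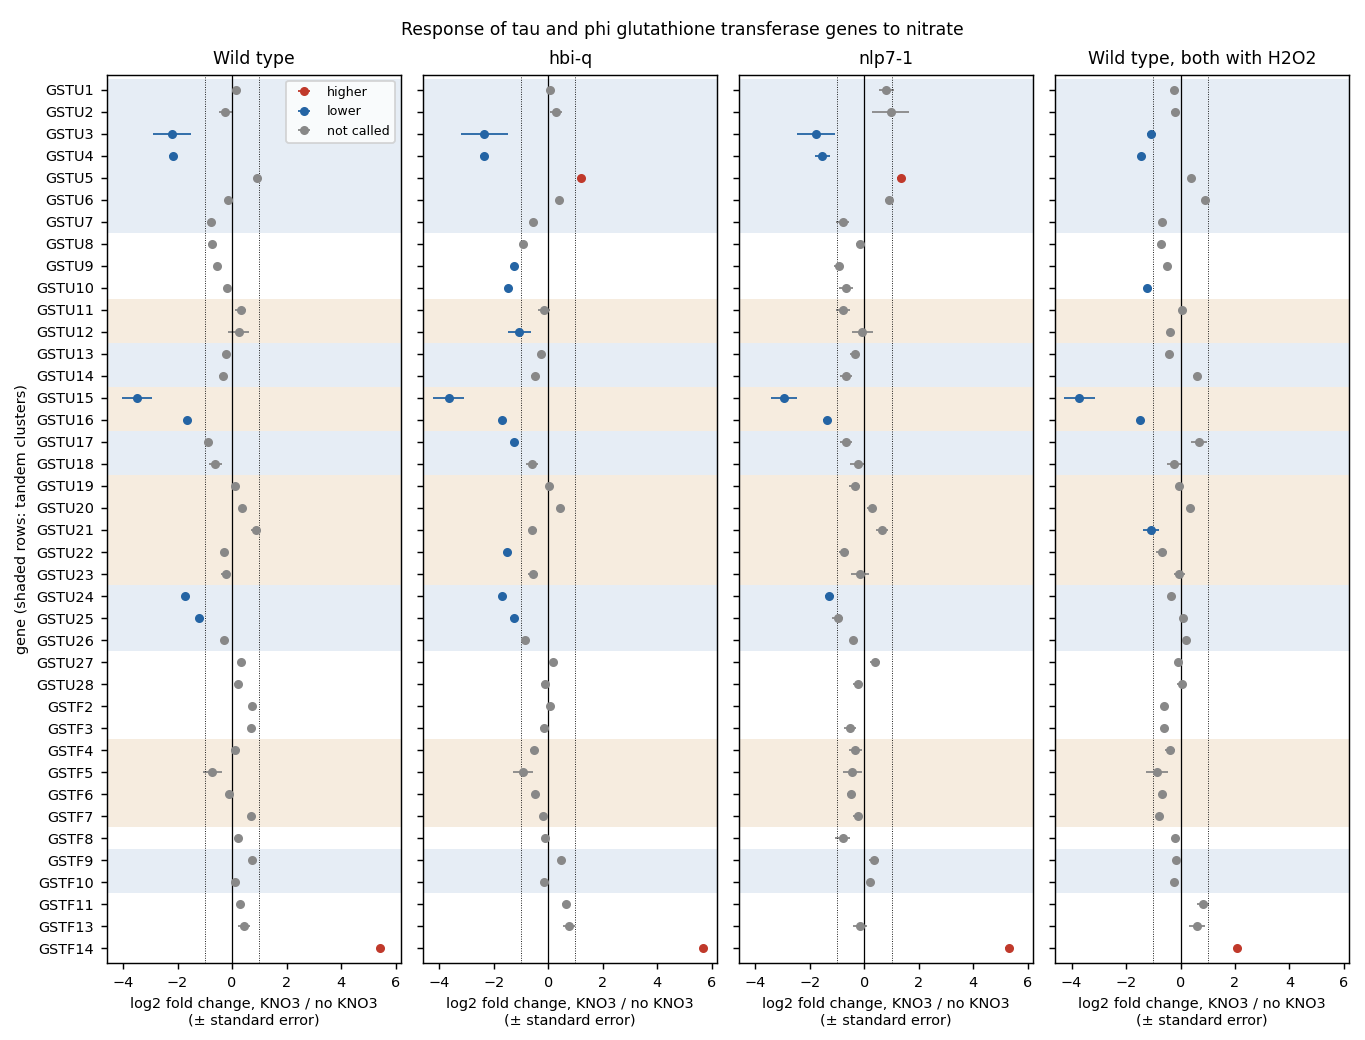
Log2 fold change with KNO3 against without, ± standard error, of each gene in the authors' deposited tables for wild type, hbi-q, nlp7-1 and wild type with H2O2 on both sides, with red for genes called higher, blue for lower and grey for not called. Shaded rows are tandem clusters and dotted lines mark 2-fold. GSTF14 lies at 5.42, 5.67, 5.31 and 2.09 in the 4 panels, and GSTU15 and GSTU16 lie below -1 in all of them.

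In hbi-q nitrate lowered 11 members and raised 2, beside 6.06% and 10.1% of all genes. The 6 genes that fell in wild type also fell in hbi-q, with GSTU15 at -3.65 ± 0.57, GSTU4 at -2.36 ± 0.13 and GSTU24 at -1.68 ± 0.09 in the authors' deposited table. The other 5 were GSTU9 (-1.27 ± 0.10, adjusted p = 5.39e-34), GSTU10 (-1.49 ± 0.10, 6.02e-49), GSTU12 (-1.06 ± 0.41, 0.0198), GSTU17 (-1.24 ± 0.09, 2.97e-40) and GSTU22 (-1.50 ± 0.11, 5.04e-44) in the authors' deposited table. GSTF14 rose 50.8-fold and GSTU5 2.29-fold in the authors' deposited table. All 11 that fell were tau genes, and the median over the 40 was -0.49 in the authors' deposited table, against -0.00 over all genes.

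The difference between the hbi-q and wild-type responses was tested for each gene. The score was the difference of the 2 log2 fold changes over its standard error, with Benjamini-Hochberg adjustment over 22954 genes. The response of 9 members was lower in hbi-q and that of 1 was higher, beside 3.49% and 2.13% of all genes. Lower ones were GSTU21 (-1.45 ± 0.24, adjusted p = 1.20e-07), GSTU10 (-1.31 ± 0.15, 1.01e-15), GSTU22 (-1.20 ± 0.16, 7.17e-12) and GSTU9 (-0.72 ± 0.15, 7.85e-05) among the tau genes. Of the phi genes, GSTF7 (-0.90 ± 0.13, adjusted p = 2.77e-10), GSTF3 (-0.86 ± 0.18, 0.000182) and GSTF2 (-0.66 ± 0.15, 0.000488) were lower. These 7 also passed with the test score centred and divided by its robust SD of 1.30 over all genes, where 1.75% of all genes were lower and 0.549% higher, while GSTU26 (-0.53 ± 0.15, 0.0117), GSTF6 (-0.38 ± 0.12, 0.0315) and GSTU6 (0.53 ± 0.17, 0.0321) did not. For GSTU12 the difference of -1.30 had a standard error of 0.57, and it did not pass. GSTU17 (-0.36 ± 0.13, adjusted p = 0.0754) and GSTU5 (0.28 ± 0.15, 0.351), called in hbi-q but not in wild type, did not pass either. Of the 8 shoot and root markers, the root marker TIP2;3 was lower in hbi-q (adjusted p = 0.00486), and its part in the members' values was not tested. The authors' deposited tables gave TIP2;3 a log2 fold change of -0.19 ± 0.19 for hbi-q, against 0.81 ± 0.19 for wild type.

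Among the members past this test, the 2 responses had opposite signs for GSTU21, GSTF7, GSTF3 and GSTU6. GSTU21 stood at 0.86 ± 0.18 in wild type and -0.59 ± 0.16 in hbi-q, and GSTF7 at 0.69 ± 0.09 and -0.21 ± 0.09, in the authors' deposited tables. GSTF3 stood at 0.70 ± 0.13 in wild type and -0.17 ± 0.13 in hbi-q, and GSTF2 at 0.73 ± 0.11 and 0.07 ± 0.11, in the authors' deposited tables. GSTU4, GSTU15, GSTU16, GSTU24 and GSTU25 differed by between -0.19 and 0.06, none past the threshold. The intervals of these differences follow from their standard errors, which were 0.12 for GSTU24, 0.16 for GSTU16, 0.18 for GSTU4, 0.19 for GSTU25 and 0.80 for GSTU15.

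Mean levels of single groups were worked out from base means and fold changes, since a base mean over known libraries and a ratio between groups fix the group means. The tables were normalized separately and these levels carry no error and no test. They were worked out for the 21 members in the H2O2 table, of which 17 had a base mean of at least 100 in both tables used. GSTU10 stood at 312 normalized counts in wild-type mock and 275 after KNO3, against 995 in hbi-q mock and 353 after KNO3. GSTU22 stood at 266 and 216 in wild type against 646 and 229 in hbi-q. For both genes the hbi-q mock group was the highest of the 4, at 3.19 and 2.43 times wild-type mock. GSTF2 showed another pattern, with 7202 in wild-type mock and 7020 in hbi-q mock, but 11938 and 7357 after KNO3. GSTF3 (243 and 290 in mock, 393 and 258 after KNO3) and GSTF7 (1436 and 1912, then 2311 and 1654) had the wild-type KNO3 group highest. Of the 17 members, 2 were at least 2-fold higher in hbi-q mock and 0 lower, beside 4.51% and 1.43% of 909 genes. Those 909 were filtered like the 17, as H2O2-listed genes with base means of at least 100, and are not all genes. The shares compare unlike mixes, since 18 of the 21 listed members were higher with H2O2. Over all genes 1112 were listed as higher and 698 as lower. Wild-type mock enters both that listing and the mock ratio. After KNO3, 0 were higher and 1 lower, beside 0.770% and 4.18%. The 1 lower gene was GSTU11, at 204 in wild type and 86.4 in hbi-q.

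**Figure D3:**
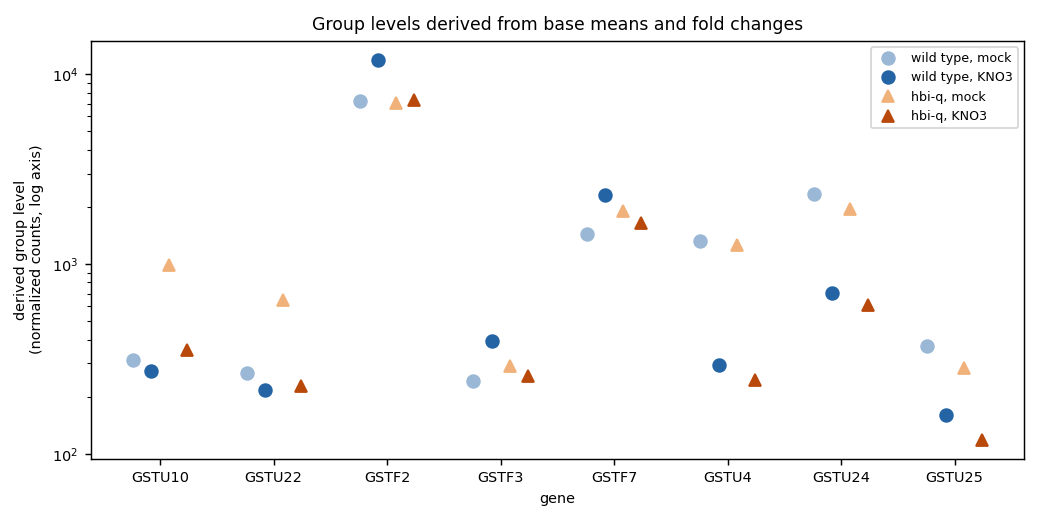
Derived mean level, in normalized counts on a log axis, of wild type (circles) and hbi-q (triangles) in mock (light) and after KNO3 (dark), with no error bars because none can be had for these values. GSTU10 and GSTU22 have their highest point in hbi-q mock (995 and 646), GSTF2, GSTF3 and GSTF7 in wild type after KNO3 (11938, 393 and 2311), and GSTU4, GSTU24 and GSTU25 have both mock points above both KNO3 points.

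In nlp7-1 nitrate raised 2 of 38 listed members and lowered 5, beside 9.03% and 6.63% of all genes. In the authors' deposited table GSTF14 rose 39.7-fold (5.31 ± 0.14, adjusted p = 6.51e-299) and GSTU5 2.53-fold (1.34 ± 0.15, 6.80e-17). GSTU15 (-2.95 ± 0.48), GSTU3 (-1.79 ± 0.70), GSTU4 (-1.54 ± 0.28), GSTU16 (-1.37 ± 0.16) and GSTU24 (-1.29 ± 0.16) fell in the authors' deposited table, and GSTU25 stood at -0.97 ± 0.20. Precision was lower in this table, where the median standard error of genes with base means above 100 was 0.180 against 0.0960 in wild type.

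Tested directly against wild type over 21790 genes, the nlp7-1 response was lower for 4 members and higher for 2, beside 7.38% and 4.33% of all genes. GSTF3 (-1.22 ± 0.26, adjusted p = 0.000172), GSTU11 (-1.10 ± 0.33, 0.0143), the stress marker gene GSTF8 (-0.99 ± 0.29, 0.0129) and GSTF7 (-0.92 ± 0.19, 8.02e-05) were lower. GSTU6 (1.05 ± 0.19, adjusted p = 5.24e-06) and GSTU8 (0.59 ± 0.17, 0.00933) were higher. None of the 6 passed with the score divided by its robust SD of 1.88, where 0.142% of all genes were lower and 0.151% higher, with the smallest adjusted p among them at 0.398 for GSTU6. For GSTF14 the difference was -0.11 ± 0.17 and did not pass. GSTU5 (0.42 ± 0.19, adjusted p = 0.117) and GSTU25 (0.23 ± 0.24, 0.551), each called in only 1 of these genotypes, did not pass either. The shoot markers CAB1 (-1.43 ± 0.33) and LHCB2.1 (-1.01 ± 0.36) and the root marker TIP2;3 (-1.29 ± 0.25) also had a lower response in nlp7-1, 3 of the 8 markers, and their part in the members' values was not tested.

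Levels of some members stood apart in the nlp7-1 table. GSTU7 had a base mean of 124 there in the authors' deposited table against 862 in the table of wild type and hbi-q, a ratio of 0.146 relative to the median gene. A lower ratio was seen in 0.0445% of genes. GSTU2 was at 7.42 against 57.2 in the authors' deposited tables, a ratio of 0.132, and GSTU12 at 115 against 25.2, a ratio of 4.65. In the cluster that holds GSTU2 and GSTU7, the other ratios were 0.681 for GSTU1, 0.683 for GSTU4, 0.835 for GSTU5, 0.928 for GSTU6 and 2.30 for GSTU3. Outside that cluster the highest ratios after GSTU12 were 2.55 for GSTU11, 2.41 for GSTF13, 2.26 for GSTF3, 1.85 for GSTF7 and 1.76 for GSTF8. A lower ratio than that of GSTF8 was seen in 96.4% of genes. The lowest ratios outside the cluster were 0.617 for GSTU24, 0.675 for GSTF14 and 0.733 for GSTU22. These tables were normalized separately, no test was run on the levels, and genotype cannot be told apart from any other way in which the nlp7-1 libraries differed.

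H2O2 without nitrate raised a large part of the family in wild type. The authors' deposited table of called genes listed 18 members as higher and 3 as lower, beside 4.98% and 3.13% of the 22311 genes in this table or that for KNO3 with H2O2. Higher genes comprised 13 of 28 tau and 5 of 12 phi genes, and the lower ones were GSTU14, GSTF11 and GSTF13. A member outside the table is not listed there and has no value.

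GSTU12 (AT1G69920) had the largest response among the listed members, a 45.6-fold rise in the authors' deposited table (5.51 ± 0.20, adjusted p = 1.99e-163). Its derived group means were 24.7 normalized counts in mock and 1125 with H2O2. GSTU25 rose 16.2-fold (4.01 ± 0.10, adjusted p of 0), GSTU3 10.3-fold (3.36 ± 0.24, 2.35e-42) and GSTU10 7.70-fold (2.94 ± 0.11, 3.68e-149) in the authors' deposited table. Derived levels went from 350 to 5648 for GSTU25, from 21.0 to 216 for GSTU3 and from 294 to 2263 for GSTU10. For these 4 tau genes the levels were worked out from the same fold changes, so they restate them and add no separate support.

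Among phi genes GSTF7 rose 6.26-fold, GSTF3 5.68-fold and GSTF2 5.39-fold in the authors' deposited table, and GSTF8 (1.56 ± 0.09) and GSTF6 (1.18 ± 0.08) rose by less. GSTF2 went from a derived 6783 normalized counts in mock to 36548 with H2O2. In the cluster GSTU1 to GSTU7, 6 of 7 genes were listed as higher, from 1.17 ± 0.09 for GSTU7 to 3.36 ± 0.24 for GSTU3 in the authors' deposited table, and GSTU6 was not listed. In the cluster GSTU19 to GSTU23, the authors' deposited table listed only GSTU22 (2.17 ± 0.14, adjusted p = 6.05e-52). GSTF11, linked to glucosinolate synthesis, fell 3.90-fold in the authors' deposited table (-1.96 ± 0.18, adjusted p = 1.47e-27), from a derived 239 to 61.1. GSTU14 (-1.47 ± 0.14) and GSTF13 (-1.44 ± 0.27) fell as well in the authors' deposited table. The listed members just past 2-fold were GSTU8 (1.12 ± 0.09), GSTU7 and GSTF6 in the authors' deposited table.

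By the promoter letters, 11 of the 16 members with TGACG were listed as higher with H2O2 and 7 of the 24 without it. Over all genes the shares listed as higher were 6.83% of 4817 with TGACG and 4.55% of 17107 without, and the split among members was not tested. GSTU12, GSTU10, GSTF7 and GSTF2, all among the 7 largest responses, held none in the 300 bases. Of 4 root marker genes fixed for these seedlings, the table listed 3 as lower with H2O2, COBL9 (-2.36 ± 0.16), EXPA7 (-2.49 ± 0.17) and TIP2;3 (-1.93 ± 0.15) in the authors' deposited table, and 0 of 4 shoot markers. Fewer cells of a type and less RNA per cell cannot be told apart in whole seedlings, and the part of this in the members' values was not tested.

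**Figure D4:**
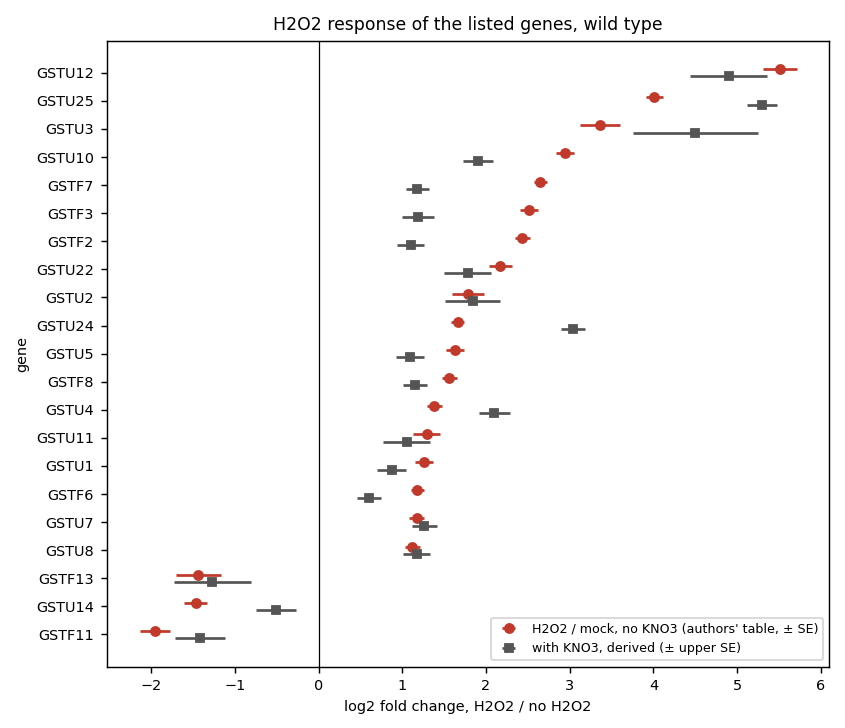
Log2 fold change with H2O2 of the 21 listed members in wild type, without KNO3 from the authors' deposited table (circles, ± standard error) and with KNO3 as derived (squares, ± the root of 3 summed squared standard errors, an upper value). GSTU12 leads without KNO3 at 5.51 and GSTU25 leads with it at 5.30, and GSTF11 is lowest in both at -1.96 and -1.42.

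With H2O2 present on both sides, nitrate raised 1 member and lowered 6, beside 6.54% and 4.14% of all genes. In the authors' deposited table GSTF14 rose 4.25-fold (2.09 ± 0.12, adjusted p = 5.28e-62). GSTU15 (-3.71 ± 0.57), GSTU16 (-1.50 ± 0.10), GSTU4 (-1.45 ± 0.10), GSTU10 (-1.23 ± 0.09), GSTU21 (-1.08 ± 0.29) and GSTU3 (-1.07 ± 0.17) fell in the authors' deposited table. GSTU24 (-0.36 ± 0.07) and GSTU25 (0.09 ± 0.07), which fell with nitrate alone, were not called there in the authors' deposited table.

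The nitrate response with H2O2 was then tested against that without over 22204 genes. It was lower for 13 members and higher for 7, beside 13.4% and 11.4% of all genes. GSTF14 had the largest difference of the family at -3.33 ± 0.16 (adjusted p = 9.89e-95). Of the 12 phi genes 8 were lower and 0 higher, among them GSTF7 (-1.47 ± 0.12, adjusted p = 7.21e-34), GSTF2 (-1.33 ± 0.13, 1.66e-21), GSTF3 (-1.32 ± 0.16, 5.49e-14) and GSTF9 (-0.89 ± 0.10, 3.49e-16). Tau genes split, with 5 lower and 7 higher. GSTU24 (1.38 ± 0.11, adjusted p = 1.57e-32) and GSTU25 (1.29 ± 0.15, 7.43e-16) were higher and GSTU10 (-1.04 ± 0.14, 2.66e-11) was lower. These 8 named members also passed with the score divided by its robust SD of 1.97, beside 2.65% of all genes lower and 1.21% higher. The other 12 did not, among them GSTU21 (-1.94 ± 0.34, adjusted p = 2.25e-07), GSTU17 (1.56 ± 0.31, 1.04e-05) and GSTU6 (1.04 ± 0.17, 1.94e-08). GSTU15 and GSTU16 differed by -0.24 ± 0.79 and 0.16 ± 0.15, and neither passed. All 4 shoot markers had a lower nitrate response with H2O2 than without, by -0.88 to -1.16. Of the 4 root markers TIP2;3 (-1.69 ± 0.28) and EXPA7 (-0.87 ± 0.25) were lower and COBL9 (0.65 ± 0.23) was higher. The part of the markers in the members' values was not tested.

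**Figure D5:**
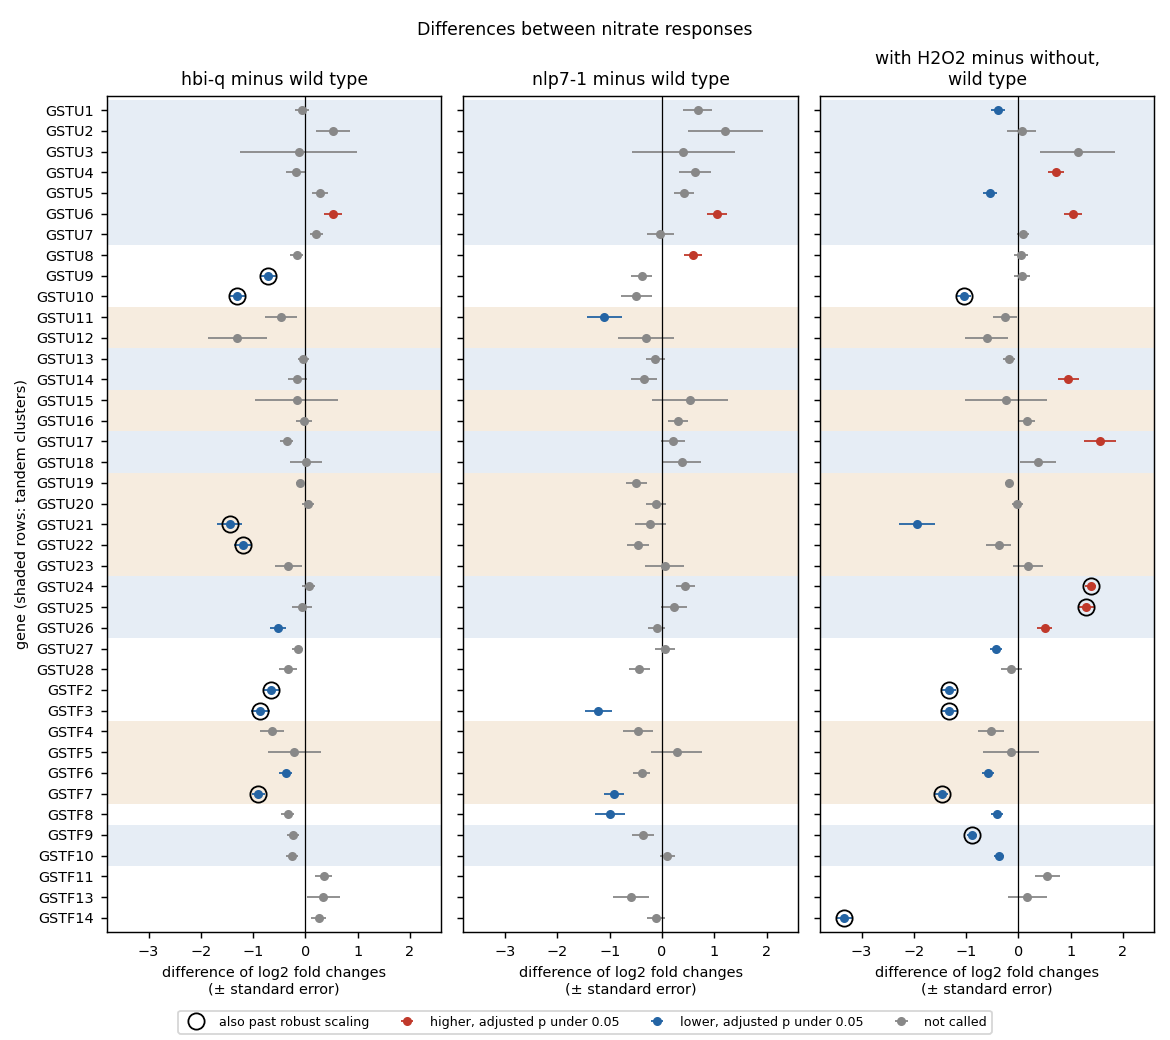
Difference of log2 fold changes with nitrate, ± standard error, for hbi-q minus wild type, nlp7-1 minus wild type, and wild type with H2O2 minus without, with red and blue for differences past an adjusted p of 0.05 and grey for the rest. Black rings mark those that also passed with robust scaling. GSTF14 lies at -3.33 in the third panel and at 0.25 and -0.11 in the others, and no gene is ringed for nlp7-1.

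GSTF14 was also followed in level. On the scale of the 12-library table, its mean over wild type and hbi-q was 339 normalized counts in mock and 15719 after KNO3. In the separately normalized table with H2O2, it was 176 with H2O2 alone and 749 with both. It was not listed for H2O2 against mock. If that change was under 2-fold, its level in nitrate-fed seedlings was between 5.03 and 20.1 times lower with H2O2 than without, from the difference of -3.33 widened by 2-fold either way.

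The effect of H2O2 in nitrate-fed wild type was derived for the 21 listed members as the sum of the H2O2 response and the nitrate response with H2O2, less the nitrate response alone. It was at least 2-fold higher for 16 and at least 2-fold lower for 2, beside 36.2% and 22.6% of 1761 H2O2-listed genes, with no test. The sum contains the H2O2 response by which these members were listed, so that listing partly fixes its sign. The shares also compare unlike mixes. Of the 21 members 18 were listed as higher, while over all genes 1112 were listed as higher and 698 as lower. GSTU25 stood 39.5 times higher with H2O2 when nitrate was given, at 152 normalized counts with KNO3 and 5996 with both. GSTU12 stood 29.9 times higher (29.1 and 870), GSTU3 22.6 times (4.55 and 103) and GSTU24 8.24 times (665 and 5483). For GSTU24 and GSTU25 the level with both treatments was close to that with H2O2 alone, 7015 and 5648, while KNO3 alone gave the lowest level of the 4 groups. GSTF7 stood 2.26 times higher (2177 and 4926) and GSTF2 2.14 times (11243 and 24088), a smaller ratio than without nitrate. GSTU1, GSTF6 and GSTU14 stayed within 2-fold at 0.87, 0.60 and -0.51 on the log2 scale.

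The members GSTU13, GSTU18, GSTU19, GSTU20, GSTU23, GSTU28, GSTF4 and GSTF5 were called in none of the nitrate tables, passed none of the 3 tests of a difference and were not listed for H2O2. GSTU19, a safener-induced tau gene, lay between -0.36 ± 0.19 (nlp7-1) and 0.12 ± 0.06 (wild type) over the 4 nitrate comparisons in the authors' deposited tables. GSTU20, linked to glucosinolate synthesis, lay between 0.27 ± 0.16 (nlp7-1) and 0.43 ± 0.09 (hbi-q), and the others of these 8 between -0.93 (GSTF5 in hbi-q) and 0.20 (GSTU28 in wild type), in the authors' deposited tables.

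Genes around the family were read from lists. Of 12 genes of other glutathione transferase classes (theta, zeta, lambda, DHAR and TCHQD), 0 rose and 1 fell with nitrate in wild type, GSTZ2, and 0 were called in hbi-q, in nlp7-1 and with H2O2 present. The authors' deposited table gave GSTZ2 -1.88 ± 0.54 (adjusted p = 0.00116) at a base mean of 14.9. With H2O2 alone, 1 of the 12 was listed, the lambda gene GSTL1 (1.72 ± 0.11, adjusted p = 3.82e-51) in the authors' deposited table. By the tests of a difference, GSTL1 alone of the 12 had a lower nitrate response in hbi-q (-0.75 ± 0.15, adjusted p = 2.37e-05), beside 3.49% of all genes. With H2O2 against without, 3 were lower and 0 higher, beside 13.4% and 11.4% of all genes. They were GSTL1 (-0.53 ± 0.14, adjusted p = 0.00106), DHAR2 (-0.41 ± 0.11, 0.00168) and DHAR3 (-0.37 ± 0.12, 0.0136). Of 11 genes of glutathione supply and conjugate handling, 0 rose and 2 fell with nitrate in wild type, the vacuolar pumps ABCC2 (-1.49 ± 0.11) and ABCC4 (-1.09 ± 0.07) in the authors' deposited table. In hbi-q ABCC2 (-1.20 ± 0.11) and the transpeptidase gene GGT4 (-1.01 ± 0.06) fell, and in nlp7-1 GGT4 did, in the authors' deposited tables. The synthesis genes GSH1 and GSH2 stood at -0.17 ± 0.05 and -0.24 ± 0.05 with nitrate in wild type in the authors' deposited table, and none of the 11 was listed for H2O2.

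Of 6 TGA genes and their partner SCL14, TGA1 (2.07 ± 0.08) and TGA4 (1.12 ± 0.08), known regulators of nitrate responses, rose with nitrate in wild type in the authors' deposited table, as both did in hbi-q and nlp7-1. The class II genes TGA2, TGA5 and TGA6 stood at -0.21 ± 0.10, -0.17 ± 0.09 and -0.05 ± 0.11 in the authors' deposited table, and none of the 7 was listed for H2O2. The nitrate response of TGA1 was smaller with H2O2 than without, by -1.46 ± 0.12 (adjusted p = 6.38e-32). Of 4 shoot markers 2 rose with nitrate in wild type and 0 in nlp7-1, and of 4 root markers 1 and 0 did.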

How the data were processed

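The 5 files are the authors' differential expression tables, 1 per comparison, and values of single libraries were not analysed here. Reads were mapped with HISAT and Bowtie2, counted per gene with HTSeq at default settings and fitted with DESeq2, per the study's design text, and the submitters' processing notes name TAIR10. No source used here gives the versions. Per the file headers, each table holds a base mean (a signal, counts divided by size factors), a log2 fold change with its standard error, a test score and a p-value with its adjusted form. The score deposited in each table equalled the fold change over its standard error within 4.03e-07. Base means summed to between 2.01e+07 and 2.09e+07 in the 4 full tables, and the depth of each library is unknown. Replicates are biological by the labels.

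Differences between responses were tested in Python 3.11.15 with numpy 2.4.6, pandas 2.3.3 and scipy 1.17.1, two-sided against the normal distribution, after a check on simulated data. All 3 differences share the wild-type response. The wild-type and hbi-q tables held the same base means, as 1 fit of 12 libraries would give. The H2O2-group level from the H2O2 table and from the KNO3 with H2O2 table differed by a constant 0.07 on the log2 scale, within 0.00239 for 977 genes, so both were read as means over 6 libraries. A factor of 1.01 on the wild-type levels put the median ratio of hbi-q to wild type in mock at 1 over 909 H2O2-listed genes. A shift shared by those genes would thus be taken out. Without the factor their median log2 ratio was 0.03. Coding sequences, read from RefSeq TAIR10.1 by locus ID (all 40 matched), were aligned with Biopython 1.88. Coordinates are those of RefSeq, since the tables hold none.

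Every member is accounted for, with values in sentences for those called in a nitrate table, past a difference test or listed for H2O2. Members, lists and tests were chosen with earlier results of these data known. Genes outside the family are from lists written for this work.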

Additional observations from a re-analysis of the deposited data

Results flagged for a closer look

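The nitrate response differed between groups, by the test of the difference itself, in 36 cases among the 40 genes. Values are differences of log2 fold changes. The 3 sets share the wild-type response, so they are not independent of each other. They hold 10, 6 and 20 members, beside 5.61%, 11.7% and 24.8% of all genes. With robust scaling of the test score 7, 0 and 8 of them still passed.

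In hbi-q against wild type the differences were -0.72 for GSTU9, -1.31 for GSTU10, -1.45 for GSTU21, -1.20 for GSTU22 and -0.53 for GSTU26. They were -0.66 for GSTF2, -0.86 for GSTF3, -0.38 for GSTF6 and -0.90 for GSTF7, and 0.53 for GSTU6.

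In nlp7-1 against wild type they were -1.22 for GSTF3, -0.92 for GSTF7, -0.99 for GSTF8 and -1.10 for GSTU11, and 1.05 for GSTU6 and 0.59 for GSTU8.

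With H2O2 against without, in wild type, phi genes gave -3.33 for GSTF14, -1.47 for GSTF7, -1.33 for GSTF2, -1.32 for GSTF3, -0.89 for GSTF9, -0.58 for GSTF6, -0.41 for GSTF8 and -0.37 for GSTF10. Tau genes below 0 were GSTU21 (-1.94), GSTU10 (-1.04), GSTU5 (-0.54), GSTU27 (-0.43) and GSTU1 (-0.39). Tau genes above 0 were GSTU17 (1.56), GSTU24 (1.38), GSTU25 (1.29), GSTU6 (1.04), GSTU14 (0.95), GSTU4 (0.72) and GSTU26 (0.50).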

How the results depend on the processing

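Counts of called members held within 1.5 times when the adjusted p-value had to lie below 0.01, and at a base mean of at least 100, for all 5 tables and all 3 differences. Without the 2-fold minimum the called members went from 7 to 26 in wild type (11 higher, 15 lower, beside 29.7% and 28.5% of all genes), from 13 to 31 in hbi-q (8 and 23, beside 29.4% and 28.9%), from 7 to 22 in nlp7-1 (5 and 17, beside 20.6% and 22.0%) and from 7 to 28 with H2O2 present (7 and 21, beside 26.6% and 26.7%). With a difference of at least 2-fold, 3 members remained past the test for hbi-q, 3 for nlp7-1 and 10 with H2O2 against without, beside 1.19%, 3.63% and 5.43% of all genes. With robust scaling 7 remained of 10 for hbi-q, 0 of 6 for nlp7-1 and 8 of 20 for H2O2, beside 2.30%, 0.294% and 3.86% of all genes, and the cause was not tested. No paired analysis was possible because the tables hold no values per library, and leaving out single libraries was not run for the same reason. Low counts limit GSTU3, GSTU12, GSTU15 and GSTF5, whose standard errors in wild type were 0.35 to 0.69.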
